A study of Mus musculus with 12 samples.

Results

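Brain taken 3 h after death was compared with brain taken at death, from 4 of the 12 arrays of a study of mouse tissue after death. The comparison rests on 2 pairs of arrays. In the fresh-frozen (FF) pair, 1 brain array at 3 h was set against 1 at 0 h, and the formalin-fixed paraffin-embedded (FFPE) pair was set in the same way. With 1 array per condition, a difference was read as shared by the pairs only where it had the same sign in both. All 45037 probe sets that are not array controls entered, of which 29688 passed a filter on low values. Of 17097 genes named by a single probe set or more, 13073 passed that filter and were tested.

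All tissue came from male BALB/c mice aged 10 weeks, with no genotype or agent given. Per the labels, the 0 h mice were sampled immediately after death, and the 3 h mice were left at room temperature in between. A further condition, 18 h at 4 °C, shares the 0 h arrays. Its arrays, and those of liver, enter the fit and its estimate of the spread, and brain at 3 h was also set against brain at 18 h. FF pieces were put in RNAlater, and a kit that transcribes from the 3' end labelled their RNA. Formalin (10%, for 24 h) fixed the FFPE pieces, and sections of 10 µm were cut from their blocks after 7 d. RNA from these sections was amplified with a whole-transcript kit made for fixed tissue. Preservation and labelling kit therefore changed together, and time and storage temperature changed together between 3 h and 18 h. The labels name neither the brain region nor the mouse behind an array, so FF and FFPE arrays may or may not come from the same mice. The fit gives each tissue and preservation its own mean. The p-values below therefore rest on how far FF and FFPE arrays disagree in their changes with time, in brain and liver together. With the mice unknown, that spread cannot be read as one between mice.

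When circulation stops, cells lose oxygen and glucose, while transcription and RNA breakdown go on for a time at rates that depend on temperature. The brain is also a mosaic of regions and cell types with very different transcripts. The choroid plexus makes cerebrospinal fluid and secretes transthyretin, the thalamus relays signals to cortex with glutamatergic neurons, and the striatum is built mainly of inhibitory projection neurons. In bulk tissue, fewer cells of a type and less RNA per cell cannot be told apart.

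The label brain was borne out by neuronal genes. The 12 pan-neuronal genes tested had a mean level of 9.81 (log2 intensity) in FF brain at 0 h and 9.94 at 3 h, against 4.35 in FF liver at both times. In FFPE brain the same mean was 9.18 and 9.27. The arrays at 0 h stood apart in genes of the liver. Over 19 hepatocyte genes tested, the mean level on the FF brain arrays was 6.73 (0 h), 4.64 (3 h) and 4.57 (18 h). In FFPE brain it was 5.07, 4.42 and 4.37, and in liver it lay between 11.91 and 12.2 on all 6 arrays. For Gapdh, the 3' control probe set minus the 5' one, a sign of RNA integrity, gave -0.02 at 0 h and 0 at 3 h in FF brain. In FFPE brain this gap was 1.22 and 1.25. The Actb gap ordered the preservations the other way, at 1.21 and 1.21 in FF brain and -0.12 and 0.05 in FFPE brain. Array medians were 4.67 to 4.68 in FF brain and 4.87 to 4.89 in FFPE brain. The number of arrays limits the precision of every value.

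At 3 h, 10 genes were called, with an adjusted p under 0.05 in limma and the same sign in both pairs, which is 0.0765% of the genes tested. Of these, 6 rose (0.0459%): Ttr, Prkcd, Plekhg1, Rora, Slc17a6 and Prox1. The other 4 fell (0.0306%): Mup3, Mup5, Apoa1 and Tac1. Before adjustment, 375 genes (2.87%) were higher and 291 (2.23%) lower with p under 0.05 and the same sign. In total 684 genes (5.23%) had p under 0.05 with any sign.

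Most genes differed little. The median difference, 3 h minus 0 h on the log2 scale, was 0.02 in the FF pair and 0.01 in the FFPE pair, with an SD across genes of 0.262 and 0.247. The pairs had the same sign upward in 3782 genes (28.9%) and downward in 2984 (22.8%), and opposite signs in 5720 (43.8%). Among the 3266 genes with the highest mean levels, 34% were higher in both pairs and 20.9% lower in both. Among the 3272 with the lowest these shares were 23.2% and 25.9%. The FF pair had 174 genes (1.33%) at least 1.5-fold higher and 159 (1.22%) lower, and the FFPE pair 159 (1.22%) and 141 (1.08%). Differences of at least 1.5-fold in both pairs were upward in 24 genes (0.184%) and downward in 11 (0.0841%).

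The calls depended on the arrays in the fit. With only the 4 brain arrays at 0 h and 3 h, which leave 1 residual degree of freedom, limma called 0 genes, and 710 had an unadjusted p under 0.05. When 1 brain array was left out, Mup3 and Ttr kept an adjusted p under 0.05 whichever array was removed. Without the FF brain array at 0 h those 2 were the only genes called, and without the FF array at 3 h Tac1 was called beside them. Without the FFPE array at 0 h, where only FF brain has a 0 h array, 39 genes were called, 31 of them lower. Without the FFPE array at 3 h, 8 genes were called, 7 of them higher. The calls of Mup5, Slc17a6 and Prox1 were lost with any 1 of the 6 brain arrays left out, and that of Tac1 with any but the FF array at 3 h.

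**Figure D1:**
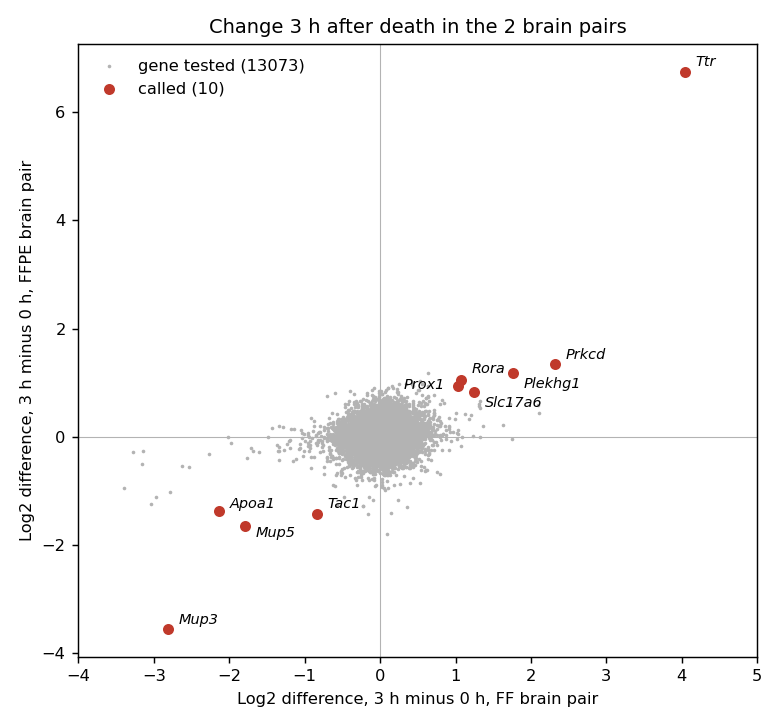
Each point is a gene, with its log2 difference (3 h minus 0 h) in the FF brain pair on the horizontal axis and in the FFPE brain pair on the vertical axis. Red points are the 10 genes called. Most grey points lie near 0 in both pairs, a row of them lies far to the left with FFPE differences near 0, and Ttr lies apart at 4.04 and 6.75.

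A group of abundant hepatocyte genes fell or was lower in brain at 3 h. Of the 4 genes that fell, 3, Mup3, Mup5 and Apoa1, are highly expressed in hepatocytes. Mup3 and Mup5 encode major urinary proteins, lipocalins that the mouse liver secretes for excretion in urine. Apoa1 encodes the main apolipoprotein of high-density lipoprotein.

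Major urinary protein genes are near copies of each other, and the probe set that reads Mup3 has the suffix _s, which Affymetrix gives to probes shared by several genes. Its value is therefore best read as a signal of the family. The likeness can be seen in the 100 bases before the transcription start of Mup3 and of 2 relatives, from RefSeq on build GRCm38.p6, all on the minus strand. They lie at chr4:62087318-62087417 (Mup3), chr4:62150842-62150941 (Mup21) and chr4:59960668-59960767 (Mup4). Capitals mark TATATAA, which resembles a core promoter element.
Mup3: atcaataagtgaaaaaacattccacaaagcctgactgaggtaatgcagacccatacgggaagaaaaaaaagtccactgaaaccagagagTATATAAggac
Mup21: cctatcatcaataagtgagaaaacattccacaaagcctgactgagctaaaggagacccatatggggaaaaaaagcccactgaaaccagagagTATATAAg
Mup4: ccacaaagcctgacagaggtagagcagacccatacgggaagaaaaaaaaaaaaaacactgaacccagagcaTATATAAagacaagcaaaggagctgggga
Over the 250 bases before the start, 13 other Mup genes in the table aligned to Mup3 at 84.1% to 92.7% identity, over 166 to 247 aligned columns. TATATAA on either strand was present in 11 of 14 Mup windows and in 3.04% of all 32851 windows in the table. These letters describe the genes and say nothing about what set the signal in brain.

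In FF brain the Mup3 level was 9.56, 6.75 and 5.98 at 0, 3 and 18 h. In FFPE brain it was 7.12, 3.56 and 3.39. Both 0 h arrays were higher than both arrays of the same preservation taken later, and liver arrays at 0 h and 3 h stood at 12.81 to 12.98. Mup3 fell by 3.19 ± 0.17 (SE, log2, 2 arrays per time), with an adjusted p of 2.92e-06 in limma. Its FFPE level at 3 h lay below that array's median of 4.89, so no fold is given. Its change differed from that in liver by -3.2 ± 0.24 (adjusted p = 0.000166 in limma), where FF and FFPE pairs gave -0.02 and 0.05. The highest values on those liver arrays were 13.2 to 13.43. Whether a signal so near the top hid a change in liver was not tested.

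Mup5 was at 6.1 and 4.31 in FF brain at 0 h and 3 h and at 5.54 and 3.88 in FFPE brain. It fell by 1.73 ± 0.25 (adjusted p = 0.0238 in limma). Besides its loss with any brain array left out, given above, the call was lost with no filter and with averaged probe sets. Both Mup5 levels at 3 h lay below their array medians. Apoa1 was at 6.91 and 4.78 in FF brain and at 6.79 and 5.41 in FFPE brain. It fell by 1.76 ± 0.21, or 3.38-fold (adjusted p = 0.00399 in limma). Without the FF brain array at 0 h, the Apoa1 difference was -1.3 and no longer passed. Each of these genes was higher at 0 h than at either later time in both preservations.

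The hepatocyte list as a whole leaned the same way, and more so in the FF pair. Every list here was chosen with earlier results of these data known, so the counts over lists are a description only. Of 19 members tested, 17 were lower in both pairs and none higher, 3 were called, and 16 were lower with an unadjusted p under 0.05. Among all genes tested, 22.8% were lower in both pairs, 0.0306% were called lower and 2.23% were lower at that unadjusted p. The median difference was -1.79 in the FF pair and -0.29 in the FFPE pair, beside 0.02 and 0.01 over all genes tested. Mup3 and Mup5 were lower by similar amounts in both pairs, whereas many other members had smaller FFPE than FF differences. Alb, serum albumin, was at 8.74 and 6.11 in FF brain at 0 h and 3 h but at 7.57 and 7.03 in FFPE brain. Serpina1c, a protease inhibitor of plasma, gave -3.39 in FF and -0.95 in FFPE. Cyp3a11, a drug-metabolising enzyme, gave -3.14 and -0.27. In FFPE brain at 0 h Serpina1c was at 3.97 and Cyp3a11 at 4.03. Both lay below that array's median of 4.88, which left little room for a fall. None of Alb, Serpina1c and Cyp3a11 was called in limma, with an adjusted p of 0.482, 0.148 and 0.676.

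Just short of the threshold stood 3 further genes of the liver, each lower in both pairs. Serpina1b, another protease inhibitor, had a difference of -2.14 ± 0.36 (adjusted p = 0.0631 in limma). Fabp1, the liver fatty acid binding protein, had -1.91 ± 0.32 (adjusted p = 0.072 in limma). Apoa2, an apolipoprotein, had -2.04 ± 0.35 (adjusted p = 0.0759 in limma).

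Genes at least 4-fold higher in liver than in brain at 0 h in both preservations numbered 863, or 6.6% of those tested. They made up 36 of the 46 genes (0.352%) that were at least 2-fold lower in the FF pair, and 6 of the 18 (0.138%) in the FFPE pair. Of the genes at least 2-fold higher they were 5 of 28 (0.214%) in the FF pair and 1 of 6 (0.0459%) in the FFPE pair. Of the 863, 257 were lower and 209 higher in both pairs. Over all 863, the median difference was -0.03 in the FF pair and 0 in the FFPE pair. With these genes removed before the fit, 5 genes were called: Plekhg1, Prkcd, Rora and Slc17a6 rose and Tac1 fell. The other 5 calls, Ttr and Prox1 included, were among the genes removed. The set was defined with the 0 h brain arrays that also enter the 3 h differences. Membership, and the shares above, therefore depend on the values tested. Ttr, for example, was at 8.68 and 5.77 in FF and FFPE brain at 0 h. At 3 h it was at 12.72 and 12.52, beside 12.65 and 12.51 in liver. The labels do not give the source of the higher hepatocyte signal at 0 h. Whether liver RNA was present in those brain arrays, and its part in these results, was not tested.

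The choroid plexus list leaned upward, led by Ttr. Ttr encodes transthyretin, a carrier of thyroid hormone and retinol-binding protein that choroid plexus epithelium and hepatocytes both make. In FF brain its level was 8.68, 12.72 and 12.21 at 0, 3 and 18 h. In FFPE brain it was 5.77, 12.52 and 12.03. Both 0 h arrays were far below the other 4, and those 4 lay close to the liver arrays at 0 h and 3 h, which stood at 12.51 to 12.66. Ttr rose by 5.4 ± 0.47, or 42.1-fold (adjusted p = 0.00034 in limma). The rise differed from the change in liver by 5.47 ± 0.66 (adjusted p = 0.0136 in limma). As for Mup3, the liver levels lay near the top of their arrays. Whether liver RNA had any part in the Ttr values was not tested.

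Of 10 choroid plexus genes tested, 9 were higher in both pairs and none was lower in both. In limma 1 was called, and 7 were higher with an unadjusted p under 0.05. Among all genes tested, 28.9% were higher in both pairs, 0.0459% were called higher and 2.87% were higher at that unadjusted p. The median difference was 1.1 in the FF pair and 0.37 in the FFPE pair. Sostdc1, a secreted antagonist of bone morphogenetic proteins, was at 3.41 and 5.51 in FF brain and at 4.81 and 5.4 in FFPE brain. Kcnj13, an inward-rectifier potassium channel, was at 4.94 and 7.05 in FF brain and at 4.49 and 4.93 in FFPE brain. Both were higher in each pair, by more in FF, and neither was called (adjusted p = 0.148 and 0.268 in limma). Cldn2, a claudin of leaky epithelia, had differences of 1 and 0.44, and F5, coagulation factor V, had 1.2 and 0.39. In FFPE brain Cldn2 was at 3.49 and 3.93 and F5 at 3.93 and 4.32, all below the array medians of 4.88 and 4.89. Both genes are high in liver and passed the filter only with the liver arrays.

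Other genes that were higher in both pairs and were not called included secreted factors. Ecrg4, a secreted peptide precursor made by choroid plexus, had differences of 1.72 in FF and 0.61 in FFPE (adjusted p = 0.127 in limma). Igf2, an insulin-like growth factor of choroid plexus and meninges, had 1.31 and 0.61 (adjusted p = 0.0814 in limma). Lbp, a lipopolysaccharide-binding protein known from the liver, had 1.32 and 0.66 (adjusted p = 0.157 in limma). The ependyma list, whose cells border the choroid plexus, had 2 of 6 members higher in both pairs, beside 28.9% of all genes tested. The other 4 had mixed or 0 differences.

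Of the genes in the thalamus list, 4 rose. Prkcd encodes protein kinase C delta, which is abundant in thalamic relay neurons. At 0, 3 and 18 h its level was 5.08, 7.4 and 5.71 in FF brain, and in FFPE brain 5.2, 6.54 and 5.19. The 3 h array was the highest of its preservation in each case. Prkcd rose by 1.83 ± 0.2, or 3.56-fold (adjusted p = 0.00294 in limma).

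Plekhg1 was at 5.39, 7.15 and 5.79 in FF brain and at 4.76, 5.93 and 4.96 in FFPE brain at 0, 3 and 18 h. It rose by 1.47 ± 0.16 (adjusted p = 0.00278 in limma). Its FFPE level at 0 h lay below that array's median of 4.88, so no fold is given. Slc17a6, which loads glutamate into synaptic vesicles, was at 6.81, 8.06 and 6.95 in FF brain and at 4.24, 5.06 and 4.21 in FFPE brain. It rose by 1.04 ± 0.16 (adjusted p = 0.0288 in limma), and its FFPE level at 0 h also lay below the array median. Rora, an orphan nuclear receptor of thalamus and cerebellum, was at 6.34, 7.41 and 6.81 in FF brain and at 6.89, 7.94 and 7.27 in FFPE brain. It rose by 1.06 ± 0.14 (adjusted p = 0.0128 in limma). For all 4 genes, the 18 h level lay nearer to 0 h than to 3 h.

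Of 9 thalamus genes tested, 5 were higher in both pairs, none was lower in both, and 4 were called. Among all genes tested, 28.9% were higher in both pairs and 0.0459% were called higher. Like the other lists, this one was chosen with earlier results of these data known, so its counts are a description only. The median difference was 1.07 in the FF pair and 0.26 in the FFPE pair. Ramp3, a receptor-modifying protein, had 0.61 and 0.26 and was not called. Tcf7l2, a transcription factor of thalamic neurons that was picked out after its values were seen, gave 1.75 in FF and -0.04 in FFPE. Prox1, a homeobox factor of dentate granule cells that is also expressed in thalamus and liver, stands in the hippocampus list. Prox1 was at 3.93 and 4.96 in FF brain and at 4.29 and 5.23 in FFPE brain, and it rose by 0.99 ± 0.14 (adjusted p = 0.0238 in limma). In brain it reached the array median only on the 3 h arrays, and it passed the filter through liver, where its levels at 0 h and 3 h were 7.23 to 8.56 and its differences 0.78 in FF and 0.48 in FFPE. The other 8 hippocampus genes were not called, and the list's median mean difference was 0.01.

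Striatal genes lay on the opposite side. Tac1, the precursor of substance P and a marker of striatal neurons that project directly to the basal ganglia output, was at 10.31, 9.47 and 9.56 in FF brain at 0, 3 and 18 h. In FFPE brain it was at 9.14, 7.71 and 8.48. Both 0 h arrays were the highest of their preservation. Tac1 fell by 1.14 ± 0.17, or 2.2-fold (adjusted p = 0.0288 in limma).

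Of 9 striatal projection neuron genes tested, 7 were lower in both pairs and none was higher in both. In limma 1 was called, and 4 were lower with an unadjusted p under 0.05. Among all genes tested, 22.8% were lower in both pairs, 0.0306% were called lower and 2.23% were lower at that unadjusted p. The median difference was -0.39 in the FF pair and -0.25 in the FFPE pair. Drd1, the dopamine receptor of the same neurons as Tac1, was at 8 and 7.37 in FF brain and at 6.44 and 5.54 in FFPE brain. Ppp1r1b, the dopamine-regulated phosphatase inhibitor DARPP-32, had differences of -0.7 and -0.38. Penk, the enkephalin precursor, had -0.27 and -0.25, and Drd2, the receptor of the other projection neurons, had -0.28 and -0.23. None of these 4 was called, with adjusted p from 0.157 (Drd1) to 0.995 (Penk) in limma. In the hypothalamus list 5 of 9 genes were lower in both pairs, among them Cartpt, a feeding-related neuropeptide precursor, at -1.34 and -0.43 (adjusted p = 0.21 in limma). The labels do not say which regions each piece held, and the part of dissection in these regional differences was not tested.

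**Figure D2:**
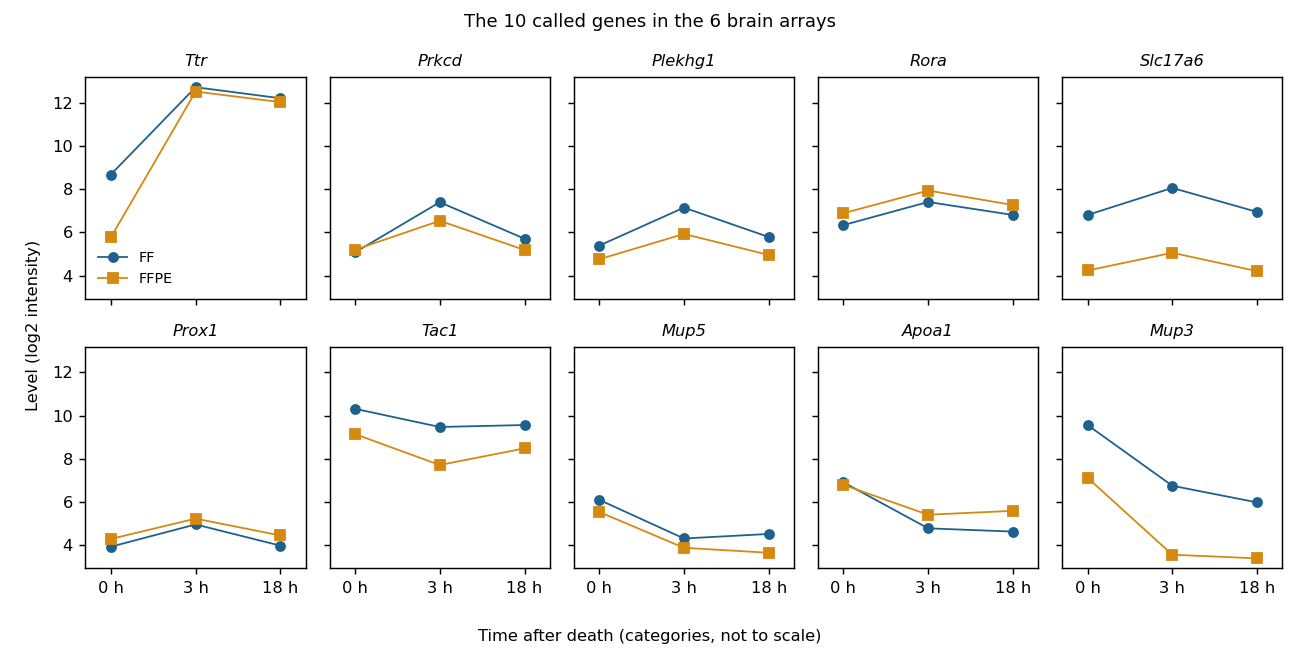
Each panel shows the level (log2 intensity) of 1 called gene at 0 h, 3 h and 18 h, with FF brain arrays as blue circles and FFPE brain arrays as orange squares, 1 array per point. Prkcd, Plekhg1, Slc17a6, Rora and Prox1 peak at 3 h, whereas Ttr stays high and Mup3, Mup5 and Apoa1 stay low at 18 h.

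**Figure D3:**
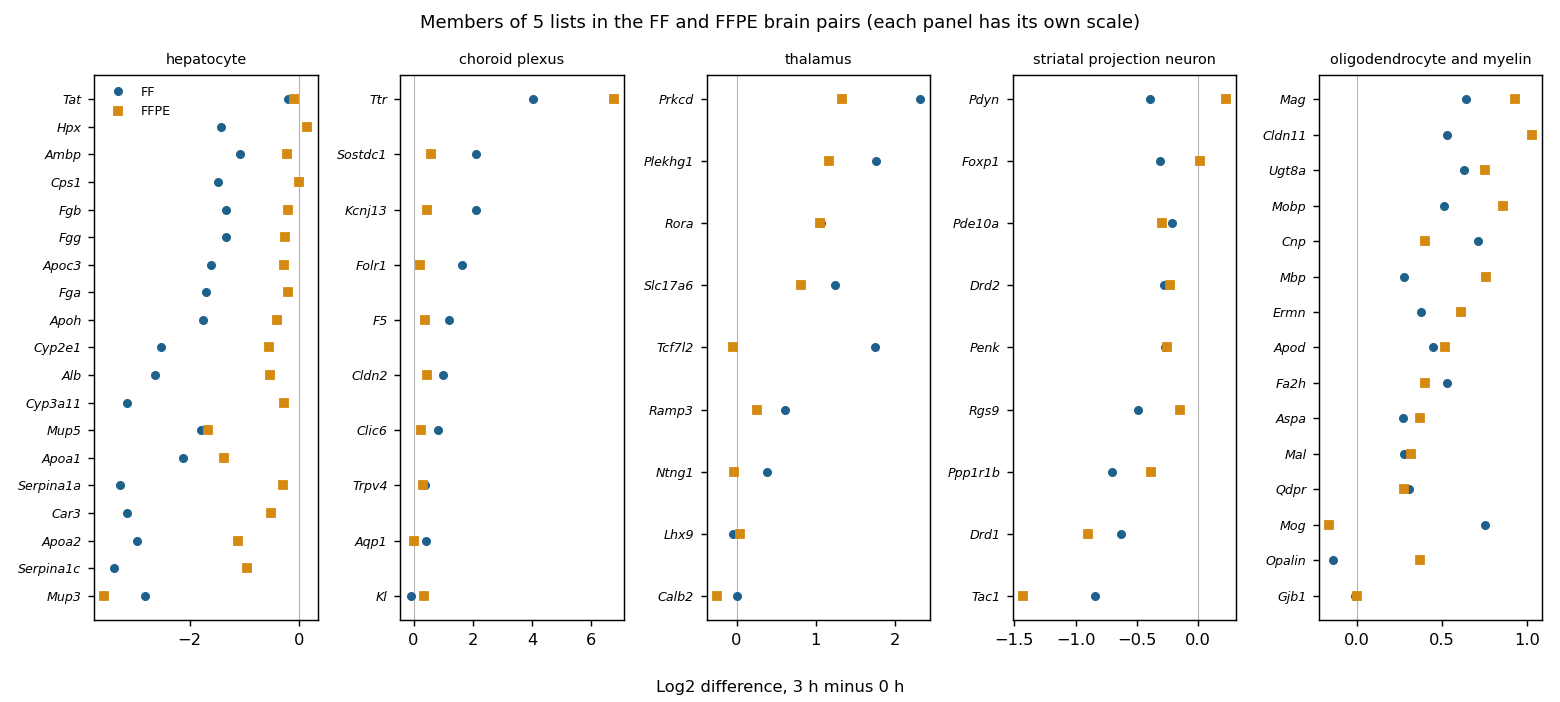
Log2 differences (3 h minus 0 h) of every tested member of 5 gene lists are shown for the FF pair (blue circles) and the FFPE pair (orange squares), sorted by their mean. Hepatocyte genes are spread to the left in FF, and choroid plexus and thalamus genes reach to the right, mostly with larger FF than FFPE differences and Ttr the other way round. Striatal genes lie mostly left of 0, and myelin genes lie mostly right of 0 in both pairs.

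Myelin genes were higher without passing the test. Of 15 oligodendrocyte and myelin genes tested, 12 were higher in both pairs and none was lower in both. None was called in limma, and 9 were higher with an unadjusted p under 0.05. Among all genes tested, 28.9% were higher in both pairs and 2.87% were higher at that unadjusted p. The median difference was 0.45 in the FF pair and 0.4 in the FFPE pair, similar in size. Cldn11, the claudin of myelin sheaths, was at 8.17 and 8.7 in FF brain and at 7.43 and 8.46 in FFPE brain. Mag, myelin-associated glycoprotein, was at 7.83 and 8.47 in FF brain and at 5.08 and 6.01 in FFPE brain. Ugt8a, which makes the galactolipids of myelin, had differences of 0.63 and 0.75, and Mobp, a basic protein of myelin, had 0.51 and 0.86. The 3 h array was the higher of each pair for all 4 genes, whose adjusted p ran from 0.148 (Cldn11) to 0.268 (Mobp) in limma. Olig2, a transcription factor of the whole oligodendrocyte lineage, had 0.54 and 0.62, but the precursor list had 3 members higher and 2 lower in both pairs.

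Other cell types gave smaller differences. Among all genes tested, 28.9% were higher and 22.8% lower in both pairs. The 10 astrocyte genes had a median difference of 0.08 in FF and 0.05 in FFPE. Gfap, the intermediate filament of astrocytes, stood out at 0.56 and 0.77 (adjusted p = 0.205 in limma). In FF brain its probe set read only 4.32 at 0 h, below that array's median of 4.68, and 4.88 at 3 h. FF liver gave 4.71 and 4.9, so the FF values lay near background. Of 11 microglia genes, 5 were lower in both pairs, none was higher in both and none had an unadjusted p under 0.05. The 13 endothelial genes had a median mean difference of -0.02, with 6 higher and 3 lower in both pairs. The 3 erythroid genes, which report blood left in the tissue, were all higher in both pairs, with differences of 0.27 and 0.69 for the globin Hba-a1.

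Among neuronal lists, 7 of 9 cortical excitatory genes were higher in both pairs, beside 28.9% of all genes tested. Neurod6, a transcription factor of pyramidal neurons, had differences of 0.4 and 0.45, and Nrgn, a calmodulin-binding postsynaptic protein, had 0.34 and 0.57. The pan-neuronal list had 4 of 12 genes higher and 4 lower in both pairs, with a median mean difference of 0.03. Of its members, the heavy neurofilament gene Nefh had 0.61 and 0.71, and Nefm had 0.32 and 0.37. Pvalb, a calcium buffer of fast-spiking interneurons, had 0.32 and 0.66, whereas Gad2, which makes GABA, had -0.34 and -0.44. None of these 6 genes was called, with adjusted p from 0.28 (Nefh) to 0.843 (Nefm) in limma. The synaptic vesicle list had 4 of 17 genes higher and 4 lower in both pairs.

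Immediate early genes, which neurons switch on within minutes of a stimulus, leaned upward by small amounts. Of 19 tested, 11 were higher in both pairs and 1 was lower in both. None was called in limma, and 3 were higher with an unadjusted p under 0.05. Among all genes tested, 28.9% were higher and 22.8% lower in both pairs, and 2.87% were higher at that unadjusted p. The median difference was 0.25 in the FF pair and 0.18 in the FFPE pair. Arc, an activity-regulated protein of dendrites, was at 8.38 and 9.1 in FF brain and at 7.92 and 8.69 in FFPE brain (adjusted p = 0.211 in limma). Fos, a subunit of the AP-1 transcription factor, was at 9.4 and 9.82 in FF brain and at 5.97 and 6.94 in FFPE brain (adjusted p = 0.29 in limma). The orphan nuclear receptor Nr4a1 had differences of 0.34 and 0.3, its relative Nr4a2 had 0.65 and 0.48, and the phosphatase gene Dusp1 had 0.47 and 0.29. The level of Arc at 18 h, 8.51 in FF and 8.27 in FFPE, lay nearer to 0 h than to 3 h.

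Many immediate early genes respond to the factor CREB, which binds sequences holding TGACG. The 120 bases before the transcription start of Fos and Nr4a1 are shown because both have such letters close to the start. They come from RefSeq on build GRCm38.p6, plus strand, at chr12:85473770-85473889 (Fos) and chr15:101266726-101266845 (Nr4a1). Capitals mark TGACG or its reverse complement CGTCA.
Fos: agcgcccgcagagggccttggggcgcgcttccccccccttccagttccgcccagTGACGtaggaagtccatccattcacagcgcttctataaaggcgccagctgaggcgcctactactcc
Nr4a1: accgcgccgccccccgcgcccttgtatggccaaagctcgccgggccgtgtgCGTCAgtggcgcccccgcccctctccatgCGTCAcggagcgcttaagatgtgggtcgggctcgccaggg
In the 250 bases before the start, 11 of the 15 immediate early genes with an entry held one of these letter strings, and 7 of the 9 that were higher in both pairs. Among all 10487 tested genes with an entry the share was 28.5%. A match describes the sequence, not a site in use.

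Differences in the stress lists were small. Of 11 heat shock genes tested, 7 were higher in both pairs, beside 28.9% of all genes tested. None was lower in both and none was called in limma. Cryab, a small heat shock protein that is also abundant in oligodendrocytes, was at 9.01 and 9.64 in FF brain and at 8.29 and 9.47 in FFPE brain (adjusted p = 0.18 in limma). Hspa1b, the inducible chaperone HSP70, had differences of 0.46 and 0.43 in brain beside 0.92 and 2.46 in liver. Hspa5, the chaperone of the endoplasmic reticulum, had 0.27 and 0.58. Cirbp, an RNA-binding protein induced by mild cold, had -0.25 and -0.64 in brain and -1.2 and -1.32 in liver.

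Hypoxia-inducible genes, 13 tested, had a median mean difference of 0.03, and none had an unadjusted p under 0.05. Vegfa, the vascular growth factor, had -0.3 and -0.36. Apoptosis genes (12 tested), inflammatory genes (9) and oxidative stress genes (12) had median mean differences of 0.06, -0.01 and -0.01, and none in these lists passed an unadjusted p of 0.05. Among 8 glucocorticoid-inducible genes, 4 were higher in both pairs, beside 28.9% of all genes tested. Zbtb16, a zinc finger factor, had 0.58 and 0.56, Sgk1, a kinase, had 0.33 and 0.33, and Tsc22d3, the leucine zipper GILZ, had 0.34 and 0.28. None of the 3 was called.

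The cell's core machinery stayed close to the median of all genes, of which 28.9% were higher and 22.8% lower in both pairs. The 45 respiratory chain genes had a median mean difference of 0.07, with 18 higher and 2 lower in both pairs. For 43 cytosolic ribosomal protein genes it was -0.02, with 5 higher and 11 lower in both. The 30 proteasome genes had 0.03 and the 13 glycolysis genes 0.01. None of these genes was called in limma, and 1 proteasome gene was higher with an unadjusted p under 0.05. Glutamate and GABA receptor genes, 20 tested, had 8 higher and 7 lower in both pairs, with the kainate receptor gene Grik4 at 0.47 and 0.45 and the AMPA receptor gene Gria1 at 0.47 and 0.34.

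**Figure D4:**
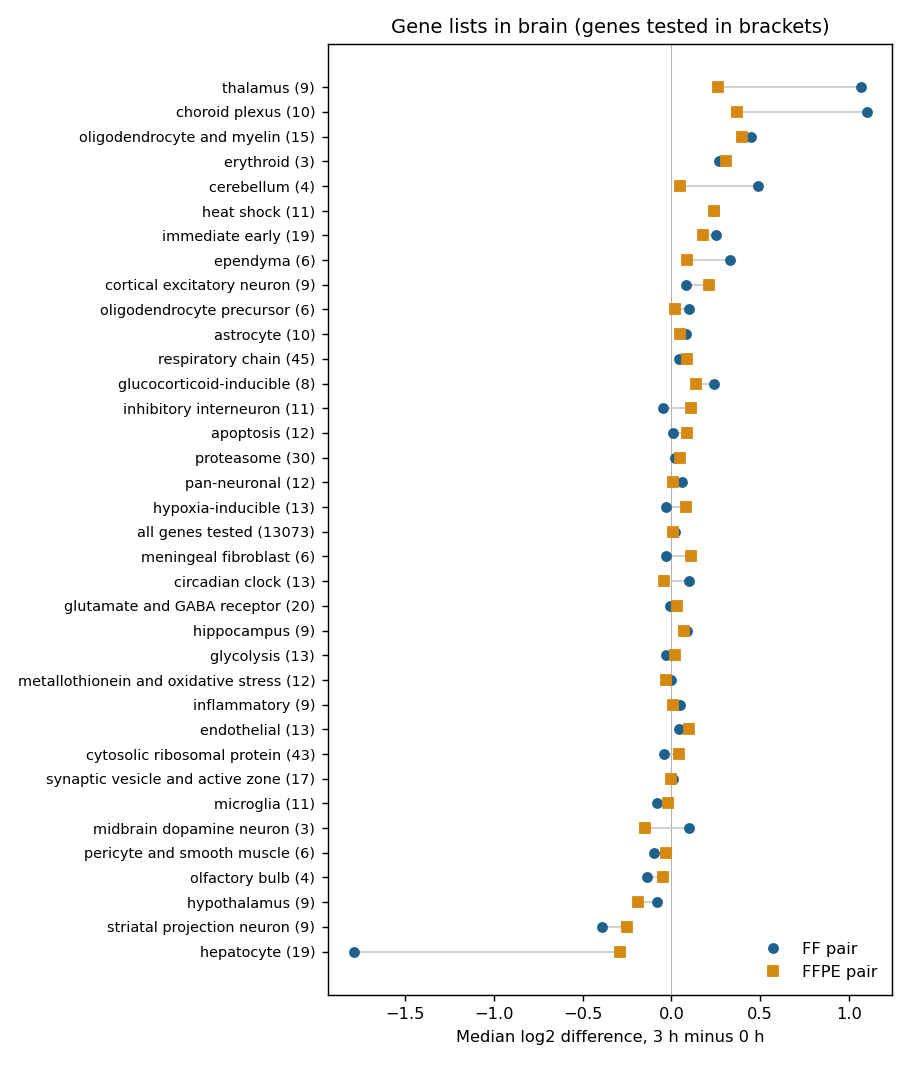
For each gene list with at least 3 tested members, the median log2 difference (3 h minus 0 h) is shown for the FF pair (blue circles) and the FFPE pair (orange squares), with the number of genes tested in brackets and the lists sorted by their median mean difference. Thalamus, choroid plexus and myelin lie farthest to the right and hepatocyte and striatal genes farthest to the left, while most lists lie close to all genes tested.

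Several other genes differed by at least 1.5-fold in both pairs without being called. Tanc1, a postsynaptic scaffold protein, was at 6.62, 7.44 and 6.38 in FF brain and at 4.02, 4.69 and 4.01 in FFPE brain at 0, 3 and 18 h. Cpne9, a calcium-binding copine, had differences of 0.65 and 0.66. Pcdh20, a protocadherin, had 0.63 and 0.73, and Baiap2l1, an actin regulator, had 0.85 and 0.62. Nrip3 had 0.61 and 0.71, and Hectd2, a ubiquitin ligase, had 0.62 and 0.6. All 6 were higher at 3 h than at 0 h in each pair, with adjusted p from 0.148 (Baiap2l1) to 0.501 (Hectd2) in limma.

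On the lower side, some of the largest differences shared by both pairs were under 1.5-fold in 1 pair. Crym, a thyroid hormone-binding protein, was at 9.33 and 8.41 in FF brain and at 6.38 and 5.8 in FFPE brain. Strip2 had differences of -0.75 and -0.69, Tacc3, a spindle protein, had -0.6 and -0.92, and Telo2, a factor for the stability of large kinases, had -0.57 and -1.27. Col6a1, a collagen chain, had -0.74 and -0.56, and Ccn3, a matricellular protein, had -0.52 and -0.66. None of these 6 passed, with adjusted p from 0.143 (Telo2) to 0.595 (Ccn3) in limma.

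Probe sets of the same gene did not always give the same value. Both probe sets of Ttr were higher in both pairs, with mean differences of 5.1 and 5.4, and both of Apoa1 were lower, at -1.76 and -1.72. The pairs of probe sets for Slc17a6 gave 0.92 and 1.04, those for Prkcd 0.51 and 1.83, and those for Plekhg1 0.36 and 1.47. Of the 3 Prox1 probe sets, 2 were higher in both pairs, with means from 0.18 to 0.99. Of the 5 Rora probe sets, 2 were higher in both pairs and 1 was lower, with means from -0.23 to 1.06. For Tac1, 1 probe set fell and the other, near background, gave 0.11. When all probe sets of a gene were averaged, 4 genes were called: Ttr, Mup3, Prkcd and Slc17a6.

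Each probe set tested on its own gave 21 calls among 29688 (0.0707%), 15 higher (0.0505%) and 6 lower (0.0202%). Further probe sets of list members were among them. For Sostdc1, 1 probe set rose by 1.46 ± 0.16 (adjusted p = 0.00378 in limma), and for Clic6, a chloride channel protein of choroid plexus, 1 rose by 1.27 ± 0.15 (adjusted p = 0.00504 in limma). For Ntng1, a netrin-like guidance protein of thalamic axons, 1 probe set rose by 1.05 ± 0.15 (adjusted p = 0.0285 in limma), while the probe set used for the gene, the brighter over all 12 arrays but not on the brain arrays at 0 h and 3 h, gave 0.38 in FF and -0.03 in FFPE. Of the 21, 7 had no listed gene, of 8475 such probe sets tested (0.0826%). Of these, 1459737_PM_s_at rose by 5.52 ± 0.48 and 1454608_PM_x_at by 4.95 ± 0.38, and 1420465_PM_s_at fell by 3.02 ± 0.29 and 1434110_PM_x_at fell by 2.95 ± 0.18.

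**Figure D5:**
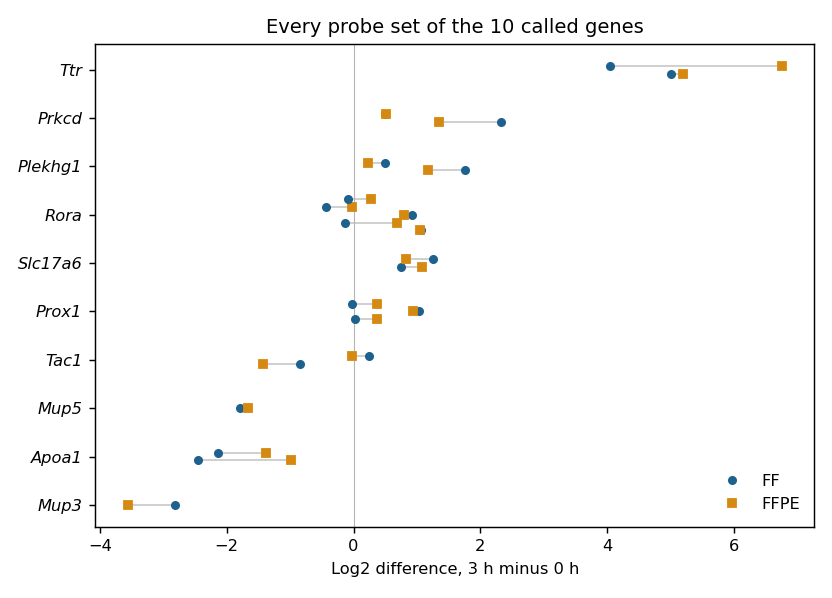
Every probe set of the 10 called genes is drawn as a grey line between its log2 difference (3 h minus 0 h) in the FF pair (blue circle) and in the FFPE pair (orange square). The probe sets of Ttr and Apoa1 lie together, whereas those of Rora and Prox1 spread to 0.

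Differences seen in 1 pair alone were described without a test. At least 2-fold higher at 3 h were 28 genes (0.214%) in the FF pair, 23 of which were also higher in FFPE. In the FFPE pair 6 genes (0.0459%) were at least 2-fold higher, and all 6 were higher in FF. Of the 46 genes at least 2-fold lower in FF, 36 were lower in FFPE, and of the 18 in FFPE, 14 were lower in FF. Ranbp10, a Ran-binding protein, was at 7.12 and 7.21 in FF brain but at 6.66 and 4.85 in FFPE brain. Pde6h, a phosphodiesterase subunit of cone photoreceptors, was at 4.85 and 4.69 in FF brain and at 6.42 and 4.99 in FFPE brain. In both genes the large difference was confined to the FFPE pair.

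The arrays at 18 h and 4 °C share the 0 h arrays, so only values side by side are given against 0 h. For Ttr the differences from 0 h were 4.04 and 6.75 at 3 h and 3.53 and 6.26 at 18 h, in FF and FFPE. For Mup3 they were -2.81 and -3.56 at 3 h and -3.58 and -3.73 at 18 h. For Prkcd they were 2.32 and 1.34 at 3 h but 0.63 and -0.01 at 18 h, and for Plekhg1 1.76 and 1.17 at 3 h but 0.4 and 0.2 at 18 h.

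A direct contrast of brain at 3 h with brain at 18 h, which does not use the 0 h arrays for the difference, passed for 2 genes (0.0153%). Prkcd was higher at 3 h by 1.52 ± 0.2 and Plekhg1 by 1.17 ± 0.16, each with an adjusted p of 0.0473 in limma. With either the FF or the FFPE array at 0 h left out, Prkcd alone passed, and with any array at 3 h or 18 h left out 0 genes passed. Prox1 and Slc17a6 were higher at 3 h by 0.88 ± 0.14 and 0.98 ± 0.16 and did not pass (adjusted p = 0.143 for each in limma). Ttr differed by 0.5 ± 0.47 and Mup3 by 0.47 ± 0.17, and neither passed (adjusted p = 0.995 in limma). Before adjustment 452 genes (3.46%) had p under 0.05.

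The 3 h change in brain differed from that in liver for the same number of genes (0.0153%), Mup3 and Ttr, as given above. Mup3 passed with any brain array left out, and Ttr with any but the FFPE array at 3 h. Without the FFPE array at 0 h 24 genes passed. Before adjustment 982 genes (7.51%) had p under 0.05 for this difference. Prkcd gave 0.17 and -0.06 in the FF and FFPE liver pairs, Plekhg1 gave -0.02 and -0.17, and Apoa1 gave 0.07 and 0.07.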

How the data were processed

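The submitters' processing notes name RMA and Affymetrix Expression Console, with which the authors made the deposited log2 intensities. RMA corrects background, brings arrays to a common distribution and summarises probes, and whether all arrays went through 1 run is not given in the sources used here. From 45141 probe sets, 104 controls were removed. Of the rest, 28898 had 1 gene in the platform table, 551 several and 15588 none. Symbols were updated through RefSeq. Where a gene had several probe sets, the brightest on average over the 12 arrays was used. A gene was tested where it reached the median of all probe sets on 3 or more arrays.

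limma 3.58.1 in R 4.3.3 was fitted to all 12 arrays with 4 tissue-by-preservation means and, per tissue, a change for 3 h and one for 18 h (8 coefficients, 4 residual degrees of freedom). All arrays share 1 spread per gene. Tests were two-sided, with Benjamini-Hochberg adjustment over 13073 genes. Errors are SEs of a change between times with 2 arrays each. Their spread comes from all 12 arrays, moderated across genes, and is not that between the 2 brain pairs alone. For Ttr the pairs gave 4.04 and 6.75 beside an SE of 0.47. The fit was tested on simulated data.

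Named genes were every called gene, the 20 largest differences shared by both pairs in each direction, up to 5 members of each of 37 lists, the 5 largest of each pair in each direction, and the 5 largest of opposite sign. The comparison, lists and rules were chosen with earlier results of these data known. In all, 17 alternatives were run.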

Additional observations from a re-analysis of the deposited data

Results flagged for a closer look

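For 2 genes the 3 h change differed between brain and liver by a limma contrast adjusted over all genes: Mup3, by -3.2, and Ttr, by 5.47 (log2, brain minus liver). Both lay near the top of the liver arrays, and whether this hid a change in liver was not tested. A further 5 genes had sizeable differences of opposite sign in the FF and FFPE brain pairs, a difference that was not tested. In FF the differences (3 h minus 0 h, log2) were -0.71 for Klhl26, 0.8 for Klk7, 0.75 for Lrrc51, 0.62 for Scn8a and 0.61 for Fnbp1. In FFPE they were 0.75, -0.7, -0.66, -0.62 and -0.62.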

How the results depend on the processing

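With 10 genes called (6 higher, 4 lower), averaging a gene's probe sets gave 4 (3 and 1), testing every probe set gave 21 (15 higher), and removing genes at least 4-fold higher in liver gave 5 (1 lower). The 4 brain arrays alone, with 1 residual degree of freedom, gave 0 calls in limma, with 710 genes at an unadjusted p under 0.05. The count of lower genes was 2 with no filter, 7 after quantile normalization, 2 with the 6 brain arrays and 7 with an intensity trend. Leaving out 1 brain array gave 2 to 39 calls, 1 to 8 higher and 1 to 31 lower. Leaving out either 18 h array gave the same 7 calls, because the other then fits its own change exactly. The 24 genes at least 1.5-fold higher in both pairs became 13 with averaged probe sets, 51 with every probe set and 4 at 2-fold. The 11 lower became 20, 4 without those liver genes and 6 at 2-fold. For brain against liver, the 2 genes became 1 with no filter, 18 with every probe set, 5 after quantile normalization, 1 with robust fitting and 5 with a trend. For 3 h against 18 h, the 2 genes became 0 with no filter and with averaged probe sets, and 1 with every probe set. Leaving out 1 brain array, an alternative chosen after seeing the data, gave 2 to 24 genes for brain against liver and 0 to 1 for 3 h against 18 h. In fits without a 0 h or 3 h array the rule of equal sign in both pairs could not apply. Of the 80 genes whose fitted difference was recomputed, 0 changed direction. The pairing by preservation is a term of the main model.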
